A study of Mus musculus with 10 samples.

Results

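The genes described here carry bile acids through the ileal enterocyte and report their arrival to the liver. They are the apical uptake transporter Slc10a2, the cytosolic carrier Fabp6, the basolateral exporter subunits Slc51a and Slc51b, the efflux pumps Abcc2 and Abcc3, the nuclear receptor Nr1h4 (FXR), its targets Fgf15 and Nr0b2, and the membrane receptor Gpbar1. The 10 genes were chosen by name, and all array probes whose platform symbol is one of them were taken. That gave 11 of the 25697 probes on the array, with 2 probes for Abcc2 and 1 for each other gene. A probe counted as measured when its detection p-value, which compares its signal with the negative controls of that array, was under 0.05 on at least 5 of the 10 arrays. By this rule 7 of the 10 genes (8 probes) were measured, among 12039 tested probes and 8685 tested genes.

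The study asked how interferon-gamma deficiency changes gene expression in the mouse small intestine. Ileum was taken from 5 IFNgKO (interferon-gamma knockout) and 5 WT (wild-type) samples, all from male C57Bl/6 mice aged 8 weeks that were fed standard chow under specific-pathogen-free housing, with no treatment given in the labels. RNA of whole tissue was hybridised to Illumina mouse bead arrays in 2 array sets, of which set 1 held 2 IFNgKO and 2 WT samples and set 2 held 3 of each. The labels do not say how the knockout allele was made, whether the groups were littermates or when the mice were fed, nor is it stated that the 10 numbered samples are 10 animals. The p-values below therefore rest on sample-to-sample spread, which may be technical.

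Bile acids are taken up in the terminal ileum with sodium by the transporter that Slc10a2 encodes, are bound in the cytosol by the product of Fabp6 and leave across the basolateral membrane through the heteromer of the Slc51a and Slc51b products. Inside the cell they activate FXR, which pairs with a retinoid X receptor and binds inverted repeats of the hexamer AGGTCA. FXR induces Fabp6, Slc51a, Slc51b, Nr0b2 and Fgf15, and the hormone made from Fgf15 travels to the liver and represses Cyp7a1, the rate-limiting enzyme of bile acid synthesis.

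Upstream sequences are shown for the 3 measured transport genes known as FXR targets, because the closest match to the FXR inverted repeat differs among them. RefSeq gives a start site with sequence for 8 of the 10 genes (assembly GRCm38.p6), and the 250 bases before the start are printed 5′ to 3′ on the strand of the gene. Capitals mark the stretch or stretches with the fewest mismatches to AGGTCANTGACCT, a motif of 13 letters, 12 of them defined, that reads the same on both strands.
Fabp6, chr11:43601563-43601812, minus strand: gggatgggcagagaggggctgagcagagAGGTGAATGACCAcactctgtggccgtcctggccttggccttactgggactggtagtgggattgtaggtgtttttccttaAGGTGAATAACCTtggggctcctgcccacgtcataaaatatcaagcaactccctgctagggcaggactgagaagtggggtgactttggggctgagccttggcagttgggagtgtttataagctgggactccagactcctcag
Slc51b, chr9:65422774-65423023, minus strand: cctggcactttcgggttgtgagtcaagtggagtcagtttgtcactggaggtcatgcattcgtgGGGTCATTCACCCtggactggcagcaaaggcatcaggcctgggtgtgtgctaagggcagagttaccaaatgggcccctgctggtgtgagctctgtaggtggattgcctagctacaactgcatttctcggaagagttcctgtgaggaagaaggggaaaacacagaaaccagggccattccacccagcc
Slc51a, chr16:32487880-32488129, minus strand: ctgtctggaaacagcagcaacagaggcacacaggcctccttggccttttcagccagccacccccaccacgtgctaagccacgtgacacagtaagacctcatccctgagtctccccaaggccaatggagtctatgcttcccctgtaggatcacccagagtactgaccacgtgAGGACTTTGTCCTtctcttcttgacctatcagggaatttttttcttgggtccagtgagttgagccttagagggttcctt

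Fabp6 held 2 stretches with 2 mismatches each, which begin 222 and 142 bases before the start. Of all 32851 RefSeq windows of this length, 0.959% held a match with 2 or fewer mismatches. Slc51b and Slc51a each held 1 stretch with 3 mismatches, beginning 187 and 79 bases before the start, a closeness that 9.63% of the windows reached. In the windows of Slc10a2, Nr1h4, Nr0b2, Abcc2 and Gpbar1 the closest stretch had 4 mismatches. The single hexamer AGGTCA, on either strand, lay in 4 of the 8 windows (Slc51a, Slc51b, Nr1h4 and Abcc2), against 14% of all windows. A match describes letters and does not show binding.

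Each array detected 10618 to 12975 probes. WT_641 stood apart, with the fewest probes detected and the lowest mean correlation with the other arrays (0.949), and values that move without it are given beside the results below. All 12 enterocyte marker genes on the array were measured. Of the 9 distal small intestine markers on the array 7 were measured. Of the 10 proximal ones 5 were measured (Dgat2, Slc40a1, Treh, Apoa4 and Slc2a2). The other 5 (Pdx1, Onecut2, Cybrd1, Gkn3 and Fabp1) were detected on 0 arrays. With proximal markers on both sides of the filter, the marker lists do not place the samples along the gut. Of 12 hepatic genes of bile acid synthesis and transport, all on the array, 1 was measured (Cyp7b1), so the probes of the liver enzymes that the Fgf15 hormone regulates, such as Cyp7a1, were below background here. The 2 Ifng probes were below background in every sample and do not check the genotype.

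None of the 7 measured genes differed between IFNgKO and WT ileum past an adjusted p of 0.05 (limma, array set fitted, Benjamini-Hochberg over all 12039 probes). Of all tested probes 0.0166% passed, 2 in number and both lower in the knockout. At an unadjusted p under 0.05 the members counted 0 of 7, against 12.2% of all tested probes. That count was 1 of 7 in array set 2 alone (888 of 12039 probes), with array weights (1422), and without WT_641 (1317), IFNgKO_646 (1034) or IFNgKO_649 (1237). The numbers in brackets are the tested probes at an unadjusted p under 0.05 in the same setting. The 10 values overlapped between the groups for all 7 genes, while the groups did not overlap for 1.34% of all tested probes. Slc51b, Fgf15 and Abcc3 were on the higher side in the knockout and Fabp6, Slc51a, Nr1h4 and Abcc2 on the lower side, with a median difference of -0.11 on the log2 scale beside -0.0012 over all tested genes. In whole tissue, fewer enterocytes and less RNA per enterocyte cannot be told apart.

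**Figure D1:**
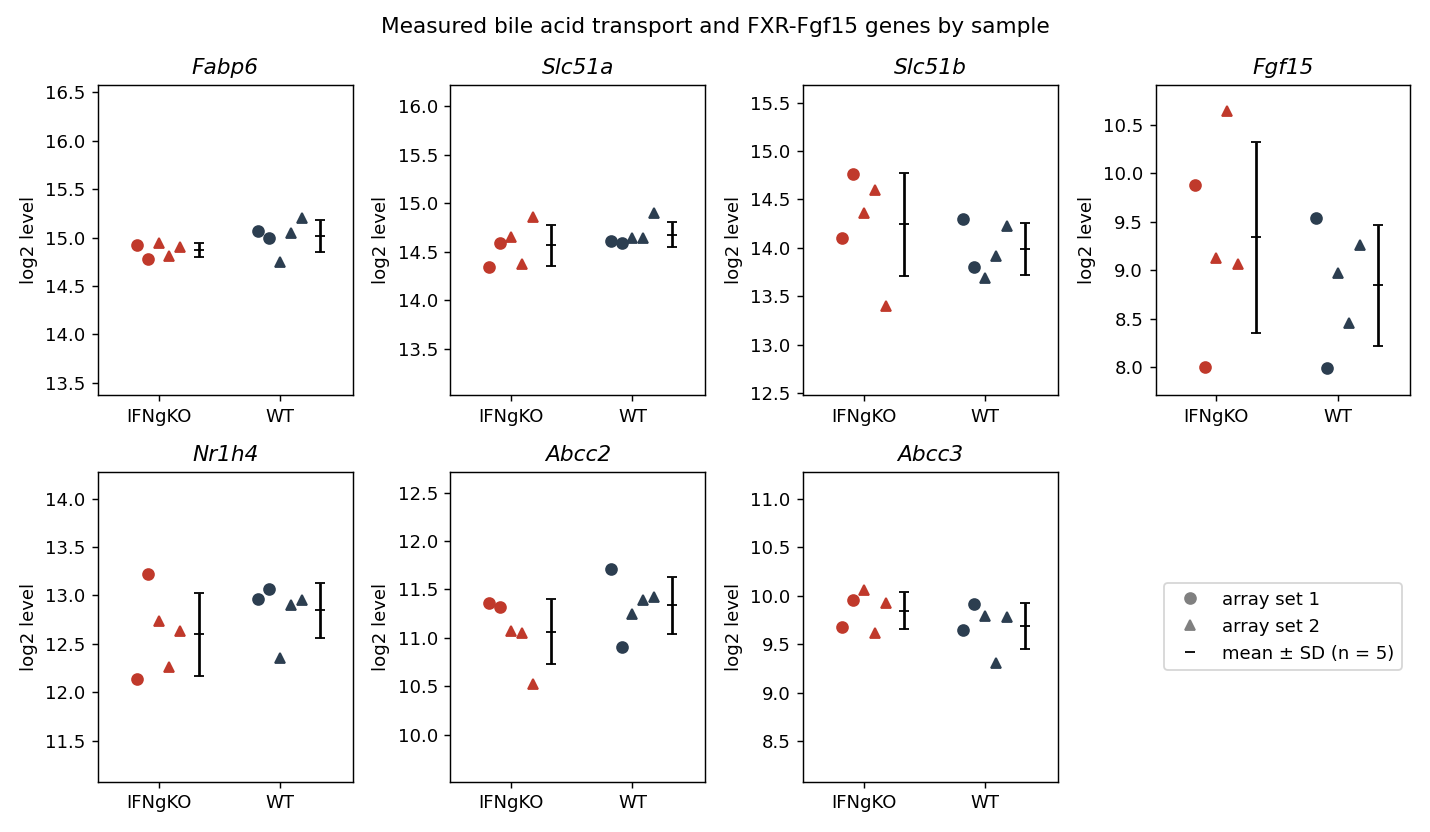
Log2 level (vertical axis, a span of equal length in every panel) of the 7 measured genes in 5 IFNgKO (left, red) and 5 WT (right, dark) samples. Circles are array set 1, triangles array set 2, and bars show the mean ± SD. The groups overlap in every panel, and Fgf15 spreads over 2.65 log2 units while Fabp6 stays within 0.46.

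Uptake could not be read from these arrays. The single probe of Slc10a2, the apical sodium-dependent bile acid transporter, had raw intensities of 78.7, 84.5, 93.3, 86.9 and 75.2 in IFNgKO_645 to IFNgKO_649, against 72.9, 70.5, 88.5, 70.6 and 74.3 in WT_640 to WT_644. It was not well above background on any array, with a lowest detection p-value of 0.177 in the knockout and 0.387 in WT. These values give no level and no fold for Slc10a2, although the carrier and exporter genes that act after it gave strong signals in the same samples. The cause was not tested.

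Fabp6, the ileal bile acid-binding protein that carries bile acids across the cytosol, varied little. Its log2 levels were 14.92, 14.77, 14.94, 14.81 and 14.90 in IFNgKO_645 to IFNgKO_649, against 15.07, 14.997, 14.75, 15.05 and 15.20 in WT_640 to WT_644. The highest knockout value lay below 4 of the 5 WT values, and the groups overlapped through WT_642. The difference, IFNgKO minus WT, was -0.14 ± 0.12 (SE), or 0.905-fold with a 95% interval of 0.751 to 1.09 (limma adjusted p = 0.661). Without WT_642 it was -0.21 (adjusted p = 0.481). Raw Fabp6 intensities reached 36532, where the brightest probe of an array stood between 41862 and 57951, and an intensity near the top of the scanner range can understate differences. Whether that occurred for Fabp6 was not tested.

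The exporter subunits differed in how much they varied. Slc51a had log2 levels of 14.35, 14.59, 14.66, 14.37 and 14.86 in IFNgKO_645 to IFNgKO_649, against 14.61, 14.59, 14.64, 14.64 and 14.90 in WT_640 to WT_644. The 4 WT values other than that of WT_644 lay between 14.59 and 14.64, and the knockout values fell on both sides of them. Its difference was -0.11 ± 0.13 (SE), or 0.925-fold with a 95% interval of 0.760 to 1.13 (limma adjusted p = 0.755). It was -0.047 without IFNgKO_648, -0.067 without WT_644, -0.072 without IFNgKO_645 and -0.17 without IFNgKO_649.

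Slc51b, the partner without which the Slc51a protein does not reach the membrane, had log2 levels of 14.10, 14.76, 14.36, 14.60 and 13.40 in IFNgKO_645 to IFNgKO_649, against 14.30, 13.80, 13.69, 13.92 and 14.23 in WT_640 to WT_644. IFNgKO_646, IFNgKO_647 and IFNgKO_648 lay above all WT samples and IFNgKO_649 lay below them all. The difference was 0.26 ± 0.23 (SE), or 1.19-fold with a 95% interval of 0.851 to 1.68 (limma adjusted p = 0.668), and it was 0.46 without IFNgKO_649, 0.14 without IFNgKO_646 or IFNgKO_648, and 0.16 without WT_641. The SD over samples was 0.53 in the knockout and 0.27 in WT (n = 5 each).

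The efflux pumps of the ABCC family also move conjugated organic anions, including bile acid conjugates, Abcc2 across the apical and Abcc3 across the basolateral membrane. Abcc2 had log2 levels of 11.36, 11.32, 11.07, 11.05 and 10.52 in IFNgKO_645 to IFNgKO_649, against 11.71, 10.90, 11.25, 11.39 and 11.42 in WT_640 to WT_644. WT_640, WT_643 and WT_644 lay above all knockout samples, and IFNgKO_649 lay below all WT samples. The difference of -0.27 ± 0.18 (SE) was 0.828-fold, with a 95% interval of 0.632 to 1.09, and had the lowest p of the members (limma adjusted p = 0.562). Set 1 alone gave 0.031 and set 2 alone -0.47, and the difference was -0.44 without WT_641 and -0.15 without IFNgKO_649. A second Abcc2 probe, detected on 3 of 5 arrays in each group, differed by -0.0038 ± 0.14 (SE, adjusted p = 0.997). Only arrays of set 2 detected it. Its raw intensities were 103.6 to 144 in the knockout and 92.8 to 147.2 in WT, against 1582 to 2828 and 1501 to 3064 for the first probe. So near background, its difference says little about Abcc2.

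Abcc3 had log2 levels of 9.67, 9.96, 10.06, 9.61 and 9.92 in IFNgKO_645 to IFNgKO_649, against 9.65, 9.91, 9.79, 9.30 and 9.78 in WT_640 to WT_644. The 3 highest values were IFNgKO_647, IFNgKO_646 and IFNgKO_649 and the lowest was WT_643. The difference was 0.16 ± 0.15 (SE), or 1.12-fold with a 95% interval of 0.892 to 1.40 (limma adjusted p = 0.690). It was 0.059 without WT_643 and 0.093 without IFNgKO_647, and 0.36 with median scaling (adjusted p = 0.314).

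Nr1h4, which encodes FXR, had log2 levels of 12.14, 13.22, 12.74, 12.26 and 12.64 in IFNgKO_645 to IFNgKO_649, against 12.96, 13.06, 12.35, 12.90 and 12.96 in WT_640 to WT_644. Both the lowest and the highest value were in the knockout, in IFNgKO_645 and IFNgKO_646 of the same array set. The difference was -0.25 ± 0.20 (SE), or 0.841-fold with a 95% interval of 0.623 to 1.14 (limma adjusted p = 0.635). Without IFNgKO_645 it was -0.071, without IFNgKO_646 -0.40 and without WT_642 -0.37.

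Fgf15, the enterokine that FXR induces, was the most variable of the members. Its log2 levels were 9.88, 8.00, 9.12, 10.64 and 9.07 in IFNgKO_645 to IFNgKO_649, against 9.54, 7.99, 8.97, 8.46 and 9.27 in WT_640 to WT_644. Raw intensities ran from 309 to 1954 in the knockout, against 248 to 740 in WT, and every array detected the probe. IFNgKO_645 and IFNgKO_648 lay above every WT sample, while IFNgKO_646 lay at the level of the lowest, WT_641. The difference of 0.50 ± 0.41 (SE) was 1.41-fold, but its 95% interval ran from 0.767 to 2.59 (limma adjusted p = 0.643). It was 0.18 without IFNgKO_648, 0.26 without IFNgKO_645, 0.31 without WT_641 and 0.83 without IFNgKO_646. Set 1 alone gave 0.17 and set 2 alone 0.71.

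The remaining FXR target, Nr0b2, which encodes the corepressor SHP, and Gpbar1, which encodes the bile acid receptor TGR5 of the cell surface, were not well above background on any array. Nr0b2 had raw intensities of 71.7 to 85.1 in the knockout, against 73.2 to 88.4 in WT, with a lowest detection p-value of 0.366. The lowest detection p-value of Gpbar1 was 0.174 in the knockout and 0.169 in WT. Neither gives a level or a fold.

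**Figure D2:**
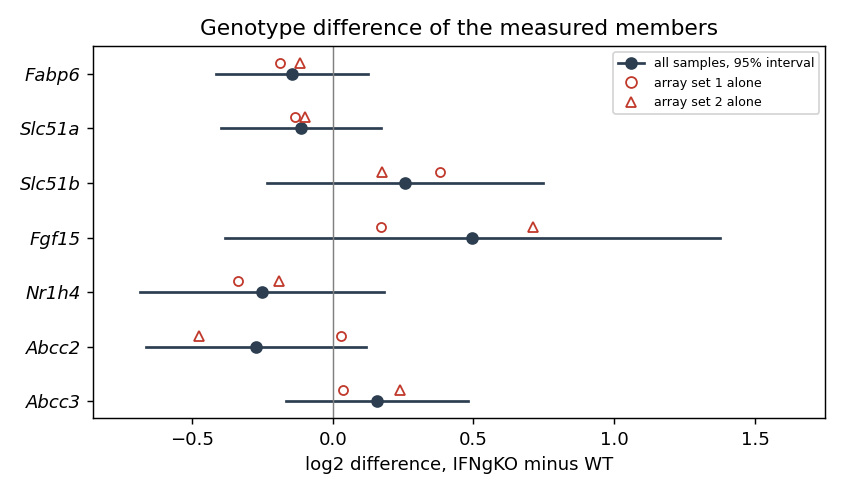
Log2 difference, IFNgKO minus WT, of the 7 measured genes (filled circles) with 95% intervals from the fit over all 10 samples, and in array set 1 (open circles) and array set 2 (open triangles) alone. Every interval spans 0. Fgf15 has the widest interval, and Abcc2 is on opposite sides of 0 in the array sets.

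The genotype difference was also compared between the array sets with an interaction term. No member passed an adjusted p of 0.05 (limma), and 0% of all tested probes did, with 382 probes at an unadjusted p under 0.05 (3.17%), none of them a member. The interaction, set 2 minus set 1, was -0.51 ± 0.36 (SE) for Abcc2 and 0.54 ± 0.85 for Fgf15, with an adjusted p of 0.999 for each.

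Among all tested probes, not matched for level, the members' spread between samples ran from exceeding 10.8% (Fabp6) to exceeding 99.6% (Fgf15). The SD of the log2 level within array set and genotype was 0.90 for Fgf15, larger than in 99.6% of tested probes, and 44 of the 12039 probes exceeded it. Over the whole series Fgf15 spanned 6.29-fold, 6.25-fold among the knockout samples and 2.93-fold among WT samples. Its place stayed between 99.2% and 99.8% with other background corrections and scalings, in the authors' value table and without any 1 sample, IFNgKO_648 included. Against the 1685 probes within 0.5 log2 units of its own mean level it exceeded 99.7%.

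Slc51b (SD 0.46) and Nr1h4 (0.40) exceeded 93.4% and 86.5% of tested probes, Abcc2 (0.30) 66.1% and Abcc3 (0.24) 43.7%. Slc51a (0.18) and Fabp6 (0.15) exceeded 20.7% and 10.8%. Bright probes vary less in general, so each was also set against probes within 0.5 log2 units of its level. There Fabp6 exceeded 39.3% of 61 probes and Slc51a 45.5% of 77, so their small spread was ordinary for their brightness. Slc51b still exceeded 95.7% of 115 probes and Nr1h4 91.9% of 394. The places of the 6 genes other than Fgf15 moved with single samples and with the processing. Among all tested probes that of Nr1h4 was 52.3% without IFNgKO_646 and 52.4% without IFNgKO_645, that of Slc51b 71.7% without IFNgKO_649 and that of Abcc2 42.1% without WT_641 and 42.4% without WT_640. Fabp6 stood at 1.36% without WT_642 and 30.6% without background subtraction, Slc51a at 2.15% with median scaling, 8.81% without IFNgKO_648 and 48.3% without background subtraction, and Abcc3 at 25.9% without WT_643 and 66.7% without background subtraction. These places describe the 10 arrays and were not tested.

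**Figure D3:**
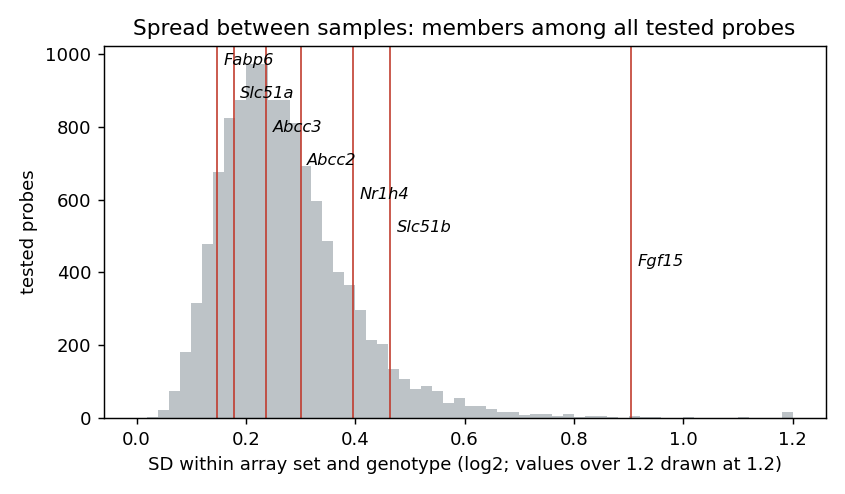
Histogram of the SD of the log2 level within array set and genotype over 12039 tested probes (horizontal axis in log2 units, vertical axis number of probes), with the 7 measured genes as vertical lines. Fabp6 and Slc51a lie left of the peak and Fgf15 lies at 0.90, in the far tail.

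Because Fabp6, Slc51a, Slc51b and Fgf15 are all known FXR targets, their co-variation over the samples was examined. Levels were centred on the mean of their array set, and each of the 21 pairs of measured members was tested by an exact two-sided permutation within array sets (17280 assignments), with adjustment over the 21 pairs. No pair passed an adjusted p of 0.05, and 2 pairs had an unadjusted p under 0.05. With Spearman's rho the counts were 0 and 0, and with Pearson's r centred on array set and genotype they were 0 and 1. In that last setting 144 assignments gave a smallest possible permutation p of 0.00694. After adjustment over 21 pairs no single pair could pass there, so its count of 0 tells nothing. Of the 21 values of Pearson's r 12 were positive and 9 negative, a split that was 16 and 5 with median scaling and 14 and 7 without IFNgKO_648.

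Among the 4 targets both signs occurred. Fabp6 and Slc51a had r = 0.49 (exact permutation p = 0.197) and rho = 0.47 (p = 0.208), with r between 0.24 and 0.63 when single samples were left out. Fabp6 and Slc51b had r = -0.08 (p = 0.837) and rho = -0.02 (p = 0.976). Fabp6 and Fgf15 had r = -0.04 (exact permutation p = 0.908) and rho = 0.12 (p = 0.764). Slc51b and Fgf15 had r = 0.30 (p = 0.416) and rho = 0.37 (p = 0.309), with r between -0.034 (without IFNgKO_648) and 0.64 when single samples were left out. The subunits Slc51a and Slc51b, whose proteins work as a pair, had r = -0.34 (p = 0.379) and rho = -0.22 (p = 0.572). Slc51a and Fgf15 had r = -0.58 (p = 0.0961) and rho = -0.26 (p = 0.457), and r was 0.32 without IFNgKO_645 and IFNgKO_648. All adjusted p-values of these pairs were 0.672 or higher, and with 10 samples a p that misses the threshold does not show that the genes vary independently.

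The 2 pairs with the lowest p both involved the receptor gene. Nr1h4 and Fgf15 had r = -0.72 (exact permutation p = 0.0112, adjusted p = 0.182) and rho = -0.60 (p = 0.110, adjusted p = 0.771). In array set 2 alone r was -0.63 (n = 6, exact permutation p = 0.178), and array set 1, with 4 samples, was too small for its own value. Nr1h4 and Slc51a had r = 0.73 (exact permutation p = 0.0174, adjusted p = 0.182) and rho = 0.60 (p = 0.0671, adjusted p = 0.771), with r = 0.69 in array set 2 and 0.40 with median scaling (p = 0.223). Without centring r was 0.50 (p = 0.141 from 100000 random permutations over all 10 samples, array set ignored). With median scaling r of Nr1h4 and Fgf15 was -0.61 (exact permutation p = 0.118). Centring on array set left the genotype difference in the values. Centred on array set and genotype, r with Nr1h4 was -0.72 for Fgf15 (exact permutation p = 0.111) and 0.68 for Slc51a (p = 0.139), with 144 assignments. In IFNgKO_645 and IFNgKO_648 Fgf15 was highest and Nr1h4 and Slc51a were low. Without these 2 samples r with Nr1h4 was -0.29 for Fgf15 and 0.33 for Slc51a. Leaving out extreme samples narrows the range and by itself tends to weaken r. Without IFNgKO_645 alone r was -0.61 for Fgf15 and 0.66 for Slc51a, and without IFNgKO_648 alone -0.66 and 0.68. Nr1h4 and Fabp6 had r = 0.44 (exact permutation p = 0.201) over all samples and 0.92 in array set 2 (n = 6, exact permutation p = 0.00972, adjusted p = 0.204).

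**Figure D4:**
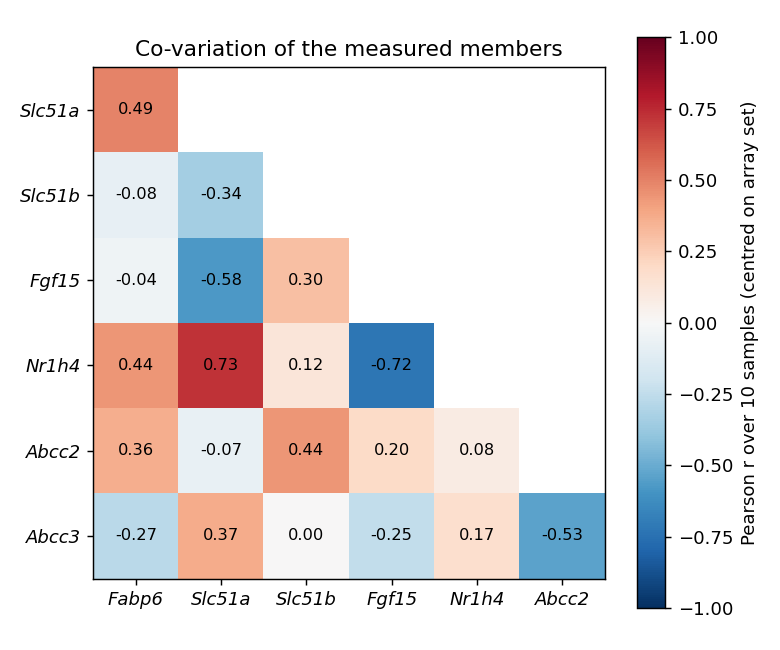
Pearson's r over 10 samples, after centring on array set, for the 21 pairs of measured genes (colour scale from -1, blue, to 1, red). The largest values are 0.73 for Nr1h4 with Slc51a and -0.72 for Nr1h4 with Fgf15, and the 4 FXR targets show values between -0.58 and 0.49 among themselves.

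The genes whose pattern was most like that of the members were taken from all tested genes by Pearson's r over 10 samples centred on array set and genotype, as a description without a test. They were picked as the highest of 8685 tested genes, so values near 1 can arise from the choice alone. The centring also leaves fewer free values than 10, which makes high r easier to reach. For Fgf15 they were Il18 (r = 0.98), the amino acid transporter gene Slc7a15 (0.98), Skil (0.96), Gchfr (0.95) and Oasl2 (0.94), and 3.43% of tested genes had r above 0.7. Il18, a cytokine gene of the epithelium, was also on the list of other intestinal FXR targets drawn up from general knowledge. Its log2 levels were 8.04, 7.22, 8.67, 9.48 and 8.83 in IFNgKO_645 to IFNgKO_649, against 7.54, 6.63, 8.44, 8.30 and 8.64 in WT_640 to WT_644. Within each array set the highest Il18 value was in the sample with the highest Fgf15 value, IFNgKO_645 in set 1 and IFNgKO_648 in set 2. The other 7 measured genes of that list had r with Fgf15 between -0.59 (Pltp) and 0.40 (Ang).

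**Figure D5:**
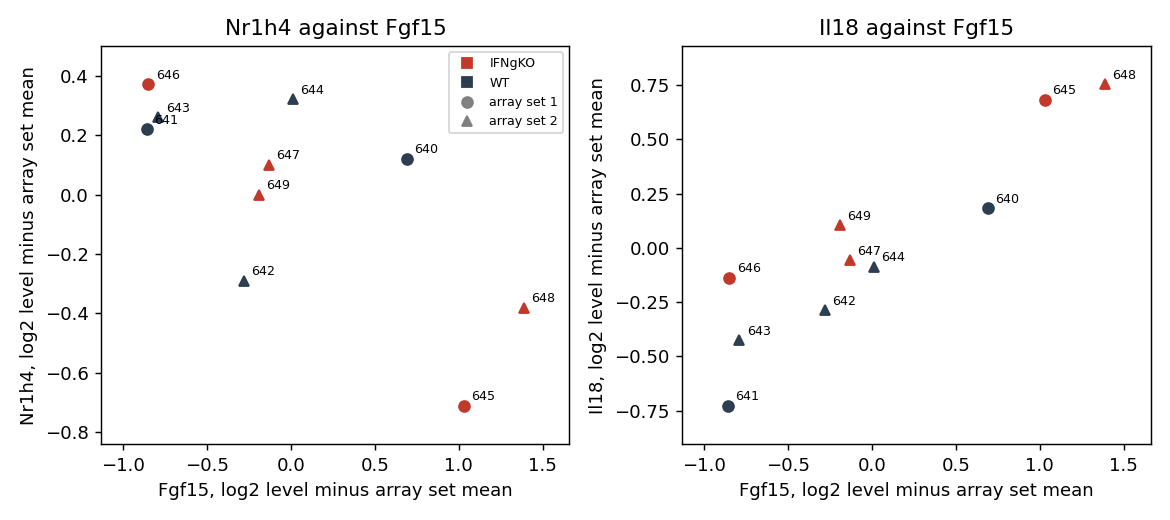
Nr1h4 (left) and Il18 (right) against Fgf15, each as the log2 level minus its array set mean, for IFNgKO (red) and WT (dark) samples labelled by number, with circles for array set 1 and triangles for array set 2. IFNgKO_645 and IFNgKO_648 are highest in Fgf15 and Il18 and lowest in Nr1h4. Il18 had the highest r with Fgf15, centred on array set and genotype, of the tested genes outside the members.

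For Fabp6 the most similar genes were Zswim9 (0.98), Taf9 (0.96), Olfr133 (0.95), Cog4 (0.95) and Ranbp1 (0.95). For Slc51b they were Rab4a (0.98), Dad1 (0.97), Slc25a48 (0.97), Gal3st2 (0.97) and Cd14 (0.97). The 3 lists share no gene. Some of these values depend on the centring: on array set alone r was 0.11 for Ranbp1 with Fabp6, 0.60 for Skil with Fgf15 and 0.65 for Dad1 with Slc51b, beside 0.92 for Il18 with Fgf15.

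The wider pathway was described by lists of genes, none of which had a member past an adjusted p of 0.05 (limma). Counts at an unadjusted p under 0.05 are to be read against 1068 of 8685 tested genes and 12.2% of tested probes. Among FXR partners and coregulators 3 of 9 measured genes were on the higher side and 6 on the lower, with a median difference of -0.10. The lowest p-values were those of the coactivator Ncoa1 (-0.23 ± 0.12, SE), the FXR partner Rxrb (-0.29 ± 0.15), the arginine methyltransferase Prmt1 (0.20 ± 0.15) and the coactivator Ppargc1a (-0.21 ± 0.19), with adjusted p-values of 0.448 to 0.664.

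Among transcription factors known to act on Slc10a2 or Fgf15 or on bile acid responses, 3 of 12 measured were on the higher side. The other 9 were on the lower side, with a list median of -0.13. At an unadjusted p under 0.05 there were 3 of 12, against 1068 of 8685 tested genes. Vdr, the vitamin D receptor, which also binds lithocholic acid, differed by -0.46 ± 0.14 (SE, adjusted p = 0.268). Its levels were 11.42 ± 0.11 in the knockout and 11.89 ± 0.25 in WT (SD, n = 5 each), and its other 2 probes showed -0.49 and -0.50. Cdx2, the intestinal identity factor, differed by -0.41 ± 0.14 (adjusted p = 0.316), Nr2f2 by -0.41 ± 0.18 (0.387) and Fos by 0.57 ± 0.31 (0.469). The genes for the Fgf15 receptor, Fgfr4 and its coreceptor Klb, were detected on no array, and of this list Fgfr2 (0.14 ± 0.20) and Fgfr3 (0.39 ± 0.18) alone were measured. Fgfr2 was detected on 5 knockout and 4 WT arrays and Fgfr3 on 5 and 3, so both reached 5 arrays only with the knockout.

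Other intestinal FXR targets were split, with 4 of 8 measured on each side and a median of -0.03. Il18 differed by 0.54 ± 0.22 (SE, adjusted p = 0.368) and the phospholipid transfer protein gene Pltp by 0.40 ± 0.21 (0.449), whereas the sterol exporter genes Abcg8 (-0.33 ± 0.15, 0.387) and Abcg5 (-0.22 ± 0.12, 0.469) were on the lower side. Other transporters of bile acids and organic anions had 7 of 9 measured genes on the lower side and a median of -0.32. At an unadjusted p under 0.05 there were 5 of 9, against 1068 of 8685 tested genes, again with 0 past the adjusted threshold. The 4 lowest p-values were those of Slco4a1 (0.51 ± 0.15, adjusted p = 0.250), the prostaglandin transporter gene Slco2a1 (-0.43 ± 0.15, 0.308), Slc22a7 (-0.38 ± 0.13, 0.314) and Abcc6 (-0.39 ± 0.16, 0.377).

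Genes of bile acid conjugation and detoxification had 3 of 8 measured on the higher side and a median of -0.04, led by Ugt1a6a (-0.26 ± 0.13, SE), the sulfotransferase gene Sult2b1 (-0.21 ± 0.13), Cyp3a25 (0.20 ± 0.24) and Gstm1 (0.15 ± 0.22), with adjusted p-values of 0.449 to 0.800. Over all 8685 tested genes 4325 were on the higher and 4360 on the lower side.

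Because ileal bile acid genes are steeply zoned, marker lists of gut segments and cell types were compared between the genotypes. These lists do not place the samples along the gut. Of 7 measured distal small intestine markers 3 were on the higher side and 4 on the lower (median -0.13), including Gcg (1.06 ± 0.24, SE, adjusted p = 0.209), Ceacam20 (-0.57 ± 0.26, 0.394), Amn (-0.32 ± 0.15, 0.411) and Guca2b (-0.17 ± 0.13, 0.612). The mean log2 level of the 12 enterocyte markers ran from 11.67 to 12.07 in the knockout, against 11.30 to 12.11 in WT, and that of 11 smooth muscle markers from 11.07 to 11.43 in the knockout, against 10.63 to 11.52 in WT. Of 11 immune cell markers on the array 5 were measured (Cd3e, Cd3d, Cd8b1, C1qa and C1qb), and all 5 were on the higher side in the knockout, with a median of 0.47, 4 of them at an unadjusted p under 0.05, against 12.2% of all probes, and 0 past the adjusted threshold. Of the 5, Cd8b1 was detected on 4 knockout arrays and 1 WT array, so it passed the filter only through the group where it was high. The counts, the median and the mean level below include it. The defining markers Ptprc, Cd8a, Cd4, Ms4a1 and Itgam were detected on 0 arrays. The mean level of the 5 ran from 6.94 to 7.72 in the knockout, against 6.52 to 7.22 in WT. Of 9 hepatocyte markers 5 (Alb, Apoh, Fgb, Fga and Ahsg) were detected on 0 arrays, so the other 4 (Cps1, Trf, Ttr and Serpina1c) cannot be read as hepatocytes. Those 4 were on the higher side in the knockout, with a median of 0.47, 2 of them (Cps1 and Ttr) at an unadjusted p under 0.05 and 0 past the adjusted threshold. Ttr was detected on 5 knockout arrays and 3 WT arrays, and Serpina1c on 4 and 2. Both reached the 5 arrays of the filter only with the knockout, where they were higher, and the counts and the median include them. Among proximal small intestine markers 3 of 5 measured were on the higher side, and Apoa4 differed by -1.21 ± 0.47 (SE, limma adjusted p = 0.355). The part of these markers in the members' genotype differences was not tested.

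Each of the 7 members was also correlated with the mean level of the enterocyte, smooth muscle, immune and proximal intestine lists, 28 relations in all, chosen after seeing the data. None passed an adjusted p of 0.05 by Pearson's r or Spearman's rho (exact permutation within array sets), and Abcc2 with enterocyte markers had the lowest p (r = 0.82, p = 0.00509, adjusted p = 0.143; rho = 0.71, p = 0.0370, adjusted p = 0.232). Without the 2 samples farthest from the median of Abcc2, r was 0.56. All these values were centred on array set alone, so the genotype difference stayed in them. The other 3 relations with an unadjusted p under 0.05 were Abcc3 with immune markers (r = 0.70, p = 0.0319, rho = 0.76), Abcc2 with immune markers (r = -0.69, p = 0.0433, rho = -0.76) and Abcc3 with proximal markers (r = -0.64, p = 0.0445, rho = -0.67), each with an adjusted permutation p of 0.312.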

How the data were processed

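Per the file headers, the deposited table gives for every probe a raw bead intensity on a linear scale and, beside it, the array's detection p-value. A value table by the authors holds intensities of these arrays that, judged from the values, had been quantile normalised with the background left in; it served as an alternative. The submitters' processing notes name lumi alone.

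Here neqc of limma 3.58.1 (R 4.3.3) estimated background from the detection p-values, applied normexp with an offset of 16, and gave quantile-normalised log2 levels. Genotypes were compared with lmFit and eBayes, array set being a second term, and Benjamini-Hochberg adjustment covered all tested probes. Where a gene had more than 1 probe, the measured probe with the highest mean was used. Platform symbols were updated through RefSeq (GRCm38.p6), matching 23971 of 23978 named probes. The fit and the correlation steps were tested on simulated data.

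The members and lists were chosen with earlier results of these data known. Besides members, up to 4 genes a list were named by lowest p, and the 5 genes most like Fgf15, Fabp6 and Slc51b. The spread percentiles and marker list correlations were added after seeing the data. Alternatives changed background, scaling, values, filter, array set term, variance model and array weights, or left out a sample. The number of arrays limits the precision.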

Additional observations from a re-analysis of the deposited data

Results flagged for a closer look

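In each group of 5 samples, the gap between the highest or lowest sample and its nearest neighbour was set against the range of the group, for the 8 measured probes in both genotypes. Of the 16 groups 2 had a sample whose gap exceeded Dixon's critical value of 0.71, and chance gives about 1 in 20. Slc51a was 14.90 in WT_644, the next WT value being 14.64. Nr1h4 was 12.35 in WT_642, the next WT value being 12.90. Neither sample was left out of the comparison.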

How the results depend on the processing

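The count of members past an adjusted p of 0.05 (limma) was 0 under every alternative run, as were the count of listed pathway genes and the count of member pairs, and the lowest adjusted p of any member was 0.310, for Abcc2 without WT_641. For pairs centred on array set and genotype, 144 assignments left no single pair able to pass. The members' median difference was -0.11, ran from -0.15 to -0.05 when single samples were left out and was 0.031 in array set 1 alone. The count of all probes past the threshold, 2, was 10 with median scaling, 5 in the authors' value table, 4 with a trended and robust variance model, 1 without the array set term, 0 in array set 1 or 2 alone, and 1 to 4 without single samples. Probes with an interaction of genotype and array set numbered 0 to 4 without single samples, 4 of them without WT_640. Median scaling moved the median of all probes to 0.19, and beside it Fabp6 was at -0.08, Slc51a at -0.04, Nr1h4 at -0.10, Abcc2 at -0.08, Slc51b at 0.34, Fgf15 at 0.72 and Abcc3 at 0.36. Differences that changed sign without being called in either setting were Abcc2 (0.031) and Prmt1 (-0.033) in array set 1 alone, Cyp3a25 in array set 2 alone (-0.073), Ppargc1a with median scaling (0.0016), and Fgfr2 (-0.024) and Cyp3a25 (-0.074) without WT_641. Over all samples left out in turn, Fgfr2 ran from -0.024 to 0.30 and Cyp3a25 from -0.074 to 0.35. The correlation of Fabp6 with Nr1h4 was -0.10 with median scaling, and that of Slc51b with Fgf15 ran from -0.034 (without IFNgKO_648) to 0.64. The causes were not tested. No paired analysis was possible because the genotypes share no replicate numbers. Genes below background on every array have no difference here. The intervals given are for single genes without adjustment and are not a limit of detection. Even a difference of 1.06 ± 0.24 (SE), that of Gcg, was not called with 5 samples a group (limma adjusted p = 0.209).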
